A study of Mus musculus with 28 samples.

Results

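The Wnt pathway was described here through 53 listed genes in cranial neural crest cells of the mouse embryo. They were 19 Wnt ligands, 10 Frizzled receptors, 4 co-receptors (Lrp5, Lrp6, Ror1 and Ror2), 4 R-spondins, 9 secreted inhibitors, the 2 Axin genes and 5 nuclear factors (Ctnnb1, Lef1, Tcf7, Tcf7l1 and Tcf7l2). All 53 were found among the 21887 protein-coding genes of the GRCm38 gene table on chromosomes 1 to 19, X and Y. The data were 1 list of intervals from chromatin immunoprecipitation and sequencing of H3K27ac. This is histone H3 acetylated at lysine 27, found at promoters and enhancers in use. It was called on the merged reads of 4 libraries of wild-type (WT) embryos at E10.5, 1 library each from the sorted cranial neural crest populations labelled FNP, Mx, Md and PA2. The cells were sorted from micro-dissected embryos, and the marker used for sorting is not given in the sources used here. The other 24 of the 28 libraries of the series, which cover other marks, an earlier stage, inputs and the genotypes labelled Ezh2cKO and HoxA2OE, were not analysed here.

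Wnt ligands are secreted, lipid-modified glycoproteins that act on Frizzled receptors. With the co-receptors Lrp5 or Lrp6 they stop the Axin-containing complex from destroying β-catenin, the product of Ctnnb1, which then enters the nucleus and works with the DNA-binding factors Lef1, Tcf7, Tcf7l1 and Tcf7l2. Other ligands, among them Wnt5a, act through Ror receptors and Frizzled proteins without β-catenin and guide cell polarity and movement. In the developing face, ligands such as Wnt3 and Wnt9b are known from the surface ectoderm, and the neural crest mesenchyme beneath it is known to respond to them.

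Each interval has a start, an end and a score, the authors' deposited value. By convention this score is 10 times −log10 of the caller's q-value, so a deeper pool of reads gives higher scores. A gene was called marked when an interval came within 1 kb of either annotated gene end. There is 1 value per gene for the pool of the 4 populations, with no replicates, so no difference could be tested, and an interval cannot be assigned to a population. Sequencing depth is unknown. Cell type markers gave a check of the pool. All 8 markers of neural crest and facial mesenchyme were marked, with highest scores from 87 at Prrx1 to 4697 at Prrx2. At their RefSeq starts, which differ from the outer ends, Prrx1 had 2523 and Pdgfra, with 137 at its ends, had 1451. Tfap2b went the other way, with 660 at an end and no interval within 1 kb of its RefSeq start. Markers of epithelium were marked in 4 of 8, with scores of 207 to 1367 and none at the ends of Cdh1, Esrp1, Trp63 or Cldn6. Endothelial markers were marked in 6 of 6 with scores of 49 to 435, blood markers in 2 of 6 (Klf1 at 1480 and Spi1 at 1492), skeletal muscle markers in 3 of 4 with scores of up to 380, and neuronal markers in 3 of 5 with scores of up to 258. Of all protein-coding genes, 65.0% were marked, with a median highest score of 610 when unmarked genes count as 0. The shares of epithelial (50%), muscle (75%) and neuronal (60%) markers lay around that share, so they are not read as a sign of such cells. What epithelial, endothelial, blood, muscle or neuronal cells contributed to the intervals at Wnt genes was not tested.

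The 250 bases upstream of the RefSeq start (GRCm38.p6) are shown for 6 genes, to set promoters with a high score beside promoters with no interval. They are the highest-scored ligand, Frizzled receptor and secreted inhibitor with an entry in the RefSeq promoter table, the first listed ligand and inhibitor with no interval at the gene ends or the start, and Axin2, a known target of β-catenin signalling. Sequences run 5′ to 3′ on the strand of the gene. Capitals mark GC boxes (GGGCGG) and the TATA motif (TATAAA), searched on both strands.
Wnt5b (chr6:119544348-119544597, minus strand): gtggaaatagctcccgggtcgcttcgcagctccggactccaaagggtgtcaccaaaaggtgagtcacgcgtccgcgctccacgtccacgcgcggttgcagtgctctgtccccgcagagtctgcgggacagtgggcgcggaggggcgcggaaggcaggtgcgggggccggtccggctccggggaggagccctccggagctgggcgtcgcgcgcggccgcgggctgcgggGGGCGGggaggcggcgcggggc
Wnt3 (chr11:103773925-103774174, plus strand): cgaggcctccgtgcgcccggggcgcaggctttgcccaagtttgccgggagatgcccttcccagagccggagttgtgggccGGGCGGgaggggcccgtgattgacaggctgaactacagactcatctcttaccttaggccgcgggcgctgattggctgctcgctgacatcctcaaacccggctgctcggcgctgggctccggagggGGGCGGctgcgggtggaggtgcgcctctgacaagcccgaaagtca
Fzd1 (chr5:4758217-4758466, minus strand): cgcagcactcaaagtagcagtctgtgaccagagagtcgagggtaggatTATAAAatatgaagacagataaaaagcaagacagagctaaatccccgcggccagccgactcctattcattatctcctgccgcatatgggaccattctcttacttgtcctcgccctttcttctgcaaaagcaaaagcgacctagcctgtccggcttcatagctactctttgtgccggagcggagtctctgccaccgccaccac
Sfrp2 (chr3:83766071-83766320, plus strand): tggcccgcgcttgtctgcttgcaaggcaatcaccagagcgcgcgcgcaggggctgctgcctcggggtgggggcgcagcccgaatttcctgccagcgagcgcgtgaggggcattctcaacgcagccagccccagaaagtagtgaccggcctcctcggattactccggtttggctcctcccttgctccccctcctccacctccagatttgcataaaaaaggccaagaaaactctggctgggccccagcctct
Sfrp5 (chr19:42202253-42202502, minus strand): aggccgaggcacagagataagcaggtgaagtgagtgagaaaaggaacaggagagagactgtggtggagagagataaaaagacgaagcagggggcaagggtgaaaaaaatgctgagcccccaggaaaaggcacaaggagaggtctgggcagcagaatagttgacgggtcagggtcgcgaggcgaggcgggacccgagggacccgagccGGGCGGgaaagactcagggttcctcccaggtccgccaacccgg
Axin2 (chr11:108920099-108920348, plus strand): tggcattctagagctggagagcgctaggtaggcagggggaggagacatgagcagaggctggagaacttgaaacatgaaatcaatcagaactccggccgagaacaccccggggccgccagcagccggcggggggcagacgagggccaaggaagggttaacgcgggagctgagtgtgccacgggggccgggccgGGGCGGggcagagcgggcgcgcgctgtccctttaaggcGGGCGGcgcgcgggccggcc

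No interval overlapped the upstream windows of Wnt3, Sfrp5 or Axin2, whereas intervals covered 250 of the 250 bases at Wnt5b, 239 at Fzd1 and 165 at Sfrp2. At Axin2 the nearest interval began 82 bases downstream of the start, so the interval lay wholly downstream of it. Base composition did not sort these 6 windows by their intervals. Wnt3 had 68.0% G and C and 22 CpG dinucleotides, and Sfrp5 had 59.6% and 13, while Wnt5b had 75.2% and 35, Axin2 69.2% and 24, Sfrp2 63.6% and 16, and Fzd1 51.2% and 12. Over all RefSeq promoter windows of 250 bases the medians were 52.4% and 6, so each of these 6 windows held more CpG than the median. A GC box was present in Wnt5b, Wnt3, Sfrp5 and Axin2, and in 32.7% of the 32851 RefSeq promoter windows of the same length. The TATA motif was present only in the Fzd1 window among these 6, and in 12.4% of all windows. The TCF/LEF motif (CTTTGAT or CTTTGTT, both strands) was in none of the 6 windows and in 8.06% of all windows. This says only that these letters are not in these 250 bases.

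Of the 53 Wnt genes, 42 (79.2%) were marked at an end, against 65.0% of all protein-coding genes. The counts varied by class, which was not tested, and the smallest class holds only 2 genes. All 10 Frizzled receptors, all 4 co-receptors, all 4 R-spondins and all 5 nuclear factors were marked, as were 8 of 9 secreted inhibitors, 11 of 19 ligands and neither Axin gene. The share of ligands, 57.9%, lay near that of all genes. An interval stood at an end or inside the gene in 50 of the 53, against 74.4% of all protein-coding genes. The 3 with neither were Wnt7a, Wnt10b and Sfrp5. A score of at least 100 was reached at the ends of 41 Wnt genes (77.4%), against 61.2% of all protein-coding genes. A score of at least 1000 was reached at the ends of 21 Wnt genes (39.6%), against 45.5% of all protein-coding genes. By class it was reached in 4 of 4 co-receptors, 5 of 5 nuclear factors, 7 of 10 Frizzled receptors, 3 of 9 inhibitors, 2 of 19 ligands and no R-spondin. With unmarked genes counted as 0, the median highest score was 577 over the 53 genes and 610 over all genes. It was 5337 for co-receptors, 3854 for nuclear factors, 1559.5 for Frizzled receptors, 561 for inhibitors, 546.5 for R-spondins and 105 for ligands.

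**Figure D1:**
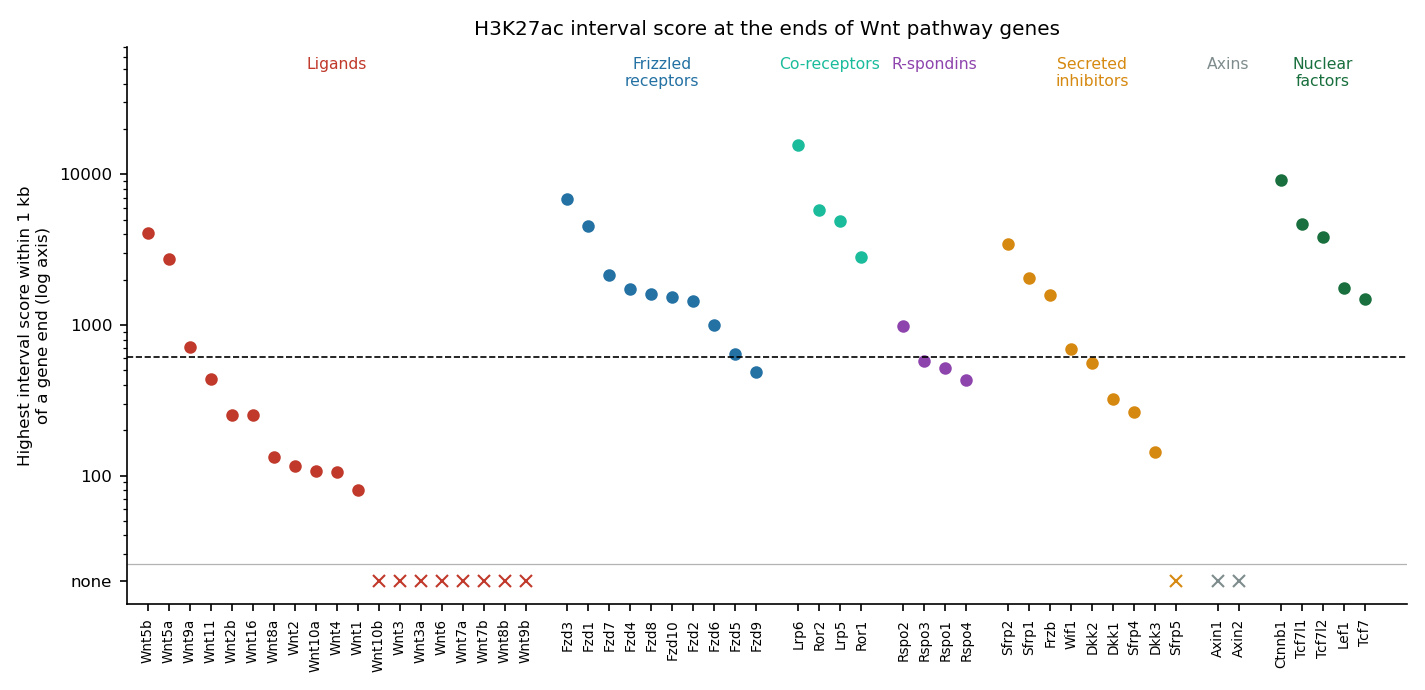
Highest H3K27ac interval score within 1 kb of a gene end (log axis) for each of the 53 Wnt pathway genes, grouped by class, with crosses for genes with no interval there and a dashed line at 610, the median of all protein-coding genes with unmarked genes at 0. Only Wnt5b, Wnt5a and Wnt9a of the 19 ligands lie above the line, while every co-receptor and nuclear factor does.

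**Figure D2:**
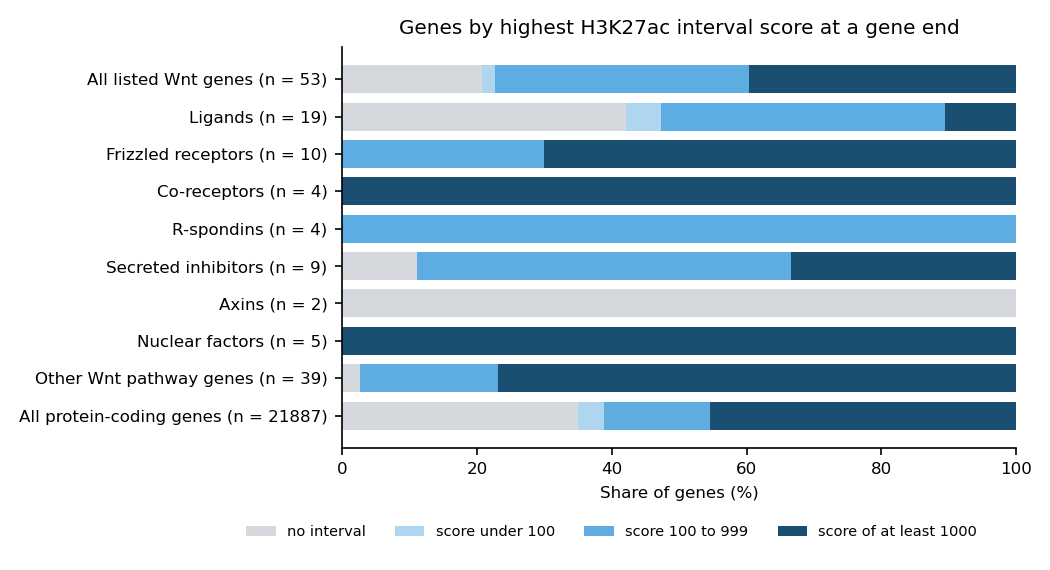
Share of genes (%) by highest interval score at a gene end, for the listed Wnt genes, their classes, 39 other Wnt pathway genes and all 21887 protein-coding genes. The darkest part, scores of at least 1000, is 2 of 19 ligands and 7 of 10 Frizzled receptors, against 45.5% of all protein-coding genes.

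Among the ligands, scores of at least 1000 were limited to the relatives Wnt5a and Wnt5b. Wnt5b had an interval with a score of 4052 at its 5′ end (chr6:119543525-119544718), and Wnt5a had 2 intervals, with scores of 2747 and 279 (chr14:28504614-28506817 for the first). The Wnt5a interval was 2204 bases wide. These scores exceeded those of 68.0% (Wnt5b) and 52.9% (Wnt5a) of marked genes. The Wnt5b interval also lay within 1 kb of an end of the predicted gene Gm52875, so it counts for both. Wnt9a followed with 718 and Wnt11, a ligand best known for signalling without β-catenin, with 439. Wnt2b had 254, Wnt16 253, Wnt8a 132, Wnt2 115, Wnt10a 107, Wnt4 105 and Wnt1 80. At its RefSeq start, Wnt2 had a higher score of 272. The only end interval of Wnt8a and the highest of Wnt10a lay 600 and 640 bases from an annotated end. Whether these ends are 5′ or 3′ is unknown here. With a window of 500 bp, Wnt2 and Wnt8a were not marked. The Wnt1 score was the lowest of all marked Wnt genes and exceeded those of only 3.20% of marked protein-coding genes. Wnt1 is a ligand known from the dorsal neural tube, from which the crest emigrates.

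No interval lay at either end of Wnt3, Wnt3a, Wnt6, Wnt7a, Wnt7b, Wnt8b, Wnt9b or Wnt10b. Wnt6 and Wnt9b have RefSeq starts inside their annotated spans, and intervals with scores of 337 and 80 lay within 1 kb of these. Wnt3, Wnt3a, Wnt7a, Wnt8b and Wnt10b had none at their RefSeq starts either. For Wnt3, the 50 kb on either side of its start held 2 intervals, with scores of 80 and 345. Wnt3 and Wnt9b, ligands known from facial ectoderm, were thus both without an interval at their gene ends, although Wnt9b had the one at its RefSeq start. Their spans overlap at their 5′ ends, so the windows there overlap too and these absences are not separate observations. Whether the absences relate to the tissue that makes these ligands was not tested.

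The Frizzled genes encode the seven-pass membrane receptors of Wnt ligands. Fzd3 had the highest score, 6812, in an interval that covered its annotated end (chr14:65261239-65262478). Fzd1 had 4511, Fzd7 2151, Fzd4 1728, Fzd8 1598, Fzd10 1521 and Fzd2 1436. Fzd6 with 994, Fzd5 with 644 and Fzd9 with 489 were the lowest. The lowest Frizzled score was thus above the scores of 16 of the 19 ligands, counting unmarked ligands as 0. Most of these genes are short, with a median length of 4.59 kb against 17.2 kb for all genes. Intervals within 1 kb of their ends, inside or outside the gene, covered a median of 1659.5 bases, against 747 over all genes, and 7 of 10 had at least 2 such intervals, against 34.5% of all protein-coding genes. Fzd2, a gene of 3.63 kb, carried 5 intervals at its ends that covered 2930 bases, the most of the 53 genes, with scores of 1436, 691, 390, 258 and 188. Both end intervals of Fzd4 also lay within 1 kb of an end of Tmem135.

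Co-receptors had the highest median score of the classes, and Lrp6 the highest score of the 53 genes. Lrp6, which pairs with Frizzled proteins to signal to β-catenin, had a score of 15719 in an interval of 1446 bases over its annotated end (chr6:134566117-134567562), above 99.9% of marked genes. Its relative Lrp5 had 4868. The receptor tyrosine kinase-like genes Ror2 and Ror1, which bind Wnt5a, had 5806 and 2837. Ror2 also had a weak interval at its 3′ end, with a score of 80. R-spondins, secreted proteins that raise the amount of Frizzled and Lrp6 at the cell surface, had lower scores, with the highest of each gene between 100 and 1000. Rspo2 had 985, Rspo3 had 577 and 265, Rspo1 had 516 and 85, and Rspo4 had 432.

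Secreted inhibitors bind ligands (the Sfrp proteins, Frzb and Wif1) or Lrp co-receptors (Dkk1 and Dkk2). Sfrp2 had 3 intervals at its 5′ end, with scores of 3424, 1864 and 280, the highest of which began just upstream of the RefSeq start (chr3:83766261-83767049). Sfrp1 had 2054 and Frzb 1577, in an interval 2150 bases wide. Wif1 had 692, with another of 214 at its 5′ end and intervals of 272, 186 and 77 at its 3′ end. Dkk2 had 561, Dkk1 320, Sfrp4 265 and Dkk3, a divergent relative of the other Dkk genes, 143. Sfrp5 was the exception, with no interval at either end, inside the gene or at its RefSeq start. Within the Sfrp genes, highest scores thus ran from none at Sfrp5 through 265 at Sfrp4 to 3424 at Sfrp2.

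The nuclear factors were all marked at their 5′ ends. Ctnnb1 had a score of 9141 (chr9:120933466-120934456), above 95.5% of marked genes, followed by Tcf7l1 with 4670, Tcf7l2 with 3854, Lef1 with 1752 and Tcf7 with 1476. Tcf7l1 is known mainly as a repressor in the absence of β-catenin. Axin1 and Axin2, scaffolds of the complex that destroys β-catenin, had no interval within 1 kb of their outer ends but strong ones inside. Axin2 had intervals with scores of 2083 (chr11:108920431-108920834) and 1992 just downstream of its RefSeq start, which lies inside the annotated span. Axin1 had an interval with a score of 6191, 7.48 kb from an annotated end (chr17:26138699-26139573). Axin2 was thus marked at its RefSeq start. Axin1 has no RefSeq start entry, so the same check could not be made for it. No window used here marked Axin1 at an annotated end, and whether its start is marked is unknown.

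The RefSeq promoter table gave start sites, and thus the strand, for 37 of the 53 genes. An interval lay within 1 kb of such a start in 31 of them (83.8%), against 65.5% of the protein-coding genes with an entry. Wnt6, Wnt9b and Axin2 were marked there and not at the outer ends. Of the 72 end intervals, 22 covered the annotated end base itself. Where the side was known, 46 lay at the 5′ end and 4 at the 3′ end. Those at the 3′ end belonged to Ror2 and Wif1 and had scores of 77 to 272. Close to the limit of 1 kb, the outermost interval counted belonged to Fzd2, 977 bases from the end with a score of 258, and the nearest one not counted belonged to Wnt1, 1019 bases away with a score of 142. An interval of Dkk3 with a score of 661 lay 1059 bases from the end and was also not counted, whereas the highest counted there had 143.

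Intervals inside the genes, away from their own ends, were found in 38 of 53 Wnt genes (71.7%), against 41.2% of all protein-coding genes. Wnt genes had a median length of 32.0 kb and all genes 17.2 kb, and longer genes hold more intervals. Each gene was therefore set beside the median count of all genes in its decile of length. Of the 53 genes, 29 (54.7%) had more intervals than that median, against 28.6% of all protein-coding genes. For 23 of the 53 that median was 0, so they could not fall below it. Of the other 30, 20 (66.7%) had more, against 43.7% of all genes in the same deciles, 7 had the same number and 3, namely Wnt7a, Fzd3 and Axin1, had fewer (10.0%, against 42.0%). Ror1 held 59 intervals in 349 kb, the most of the set, and Ror2 29, Tcf7l1 30, Tcf7l2 25, Rspo2 24 and Lef1 16. The decile of the longest genes, which holds these 6 genes, had a median of 11 and quartiles of 5 and 20. Among shorter genes, Dkk3 held 10 intervals in 43.5 kb, Axin2 7 in 33.0 kb and Wnt11 6 in 19.7 kb, where the medians of their deciles were 1, 1 and 0.

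The strongest intervals inside the genes lay in Wnt5b, Axin1, Tcf7l2 and Axin2. The one in Wnt5b, with a score of 12079, lay at an end of Fbxl14, a gene inside the Wnt5b span, so it may belong to that gene. In Tcf7l2 an interval with a score of 2897 began 1.54 kb from the 5′ end. Scores inside Ror1, Ror2, Rspo2 and Tcf7l1 were at most 527, 1103, 879 and 1448. Ligands held a median of 1 interval, and Wnt7a, Wnt10a, Wnt10b and Wnt16 none. Of the Frizzled genes, Fzd3, Fzd5 and Fzd6 held 2 each and the other 7 none. These 7 genes are only 2.11 kb (Fzd9) to 5.745 kb (Fzd4) long. Intervals that reach the 1 kb at either end are not counted as inside. This leaves almost none of Fzd9 and a limited part of the others. Dkk1, Sfrp2, Sfrp4 and Sfrp5 also held none.

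**Figure D3:**
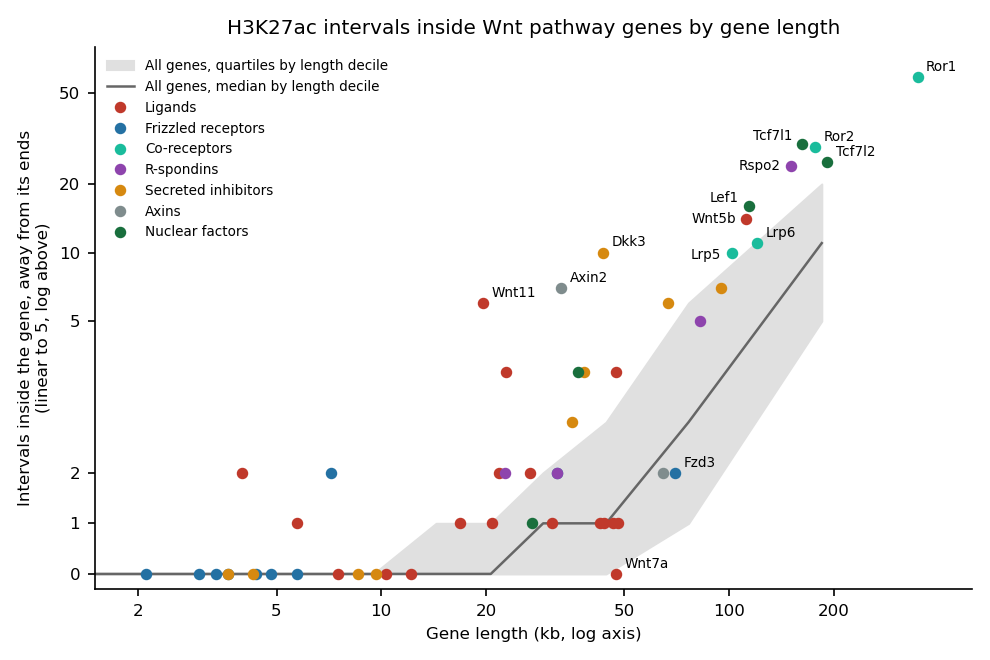
Intervals inside each Wnt pathway gene and away from its ends (vertical axis, linear to 5 and logarithmic above) against gene length in kb (log axis), by class. The line and the grey band give the median and quartiles of all protein-coding genes in each length decile, drawn at the median length of the decile, and Ror1, with 59 intervals, lies at the top.

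All 53 genes had intervals within 100 kb outside the gene, as did 89.6% of all protein-coding genes. All 53 also had at least 1 that was away from every protein-coding gene end, against 87.4%. The median was 18 per Wnt gene (quartiles 13 and 23, range 2 to 37), against 12 over all genes (quartiles 5 and 18). Frizzled receptors had a median of 22.5, nuclear factors 20, co-receptors 19.5, inhibitors 19, R-spondins 15.5 and ligands 14. Fzd7 had the most, 37, and Fzd8 the fewest, 2. Many of these intervals lie nearer to other genes. When only intervals with no nearer gene end were counted, the median was 4 over the Wnt genes and 0 over all genes. By class it was 13 for inhibitors, 10 for nuclear factors, 7.5 for Frizzled receptors, 5.5 for R-spondins, 3 for co-receptors and 2 for ligands. A count of this kind also depends on how far away the next gene lies. Genes were not matched for that distance, so these medians do not compare acetylation alone.

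Sfrp1 and Tcf7l2 had the most intervals counted this way, 25 each, then Fzd4 with 24, Fzd7 and Fzd10 with 21 each, Axin2 with 19, Dkk2 with 18, Frzb with 17 and Dkk1 with 16. The ligands with most were Wnt7b with 10, Wnt11 with 9 and Wnt9a with 7, and Wnt3, Wnt3a, Wnt6, Wnt8a, Wnt8b and Wnt10b had none. No such interval was found either at Fzd3, Fzd8, Lrp5, Lrp6, Sfrp4, Sfrp5 or Axin1. Fzd8 thus had a score of 1598 at its end with 2 intervals in 100 kb on either side, whereas Fzd10, with a similar score of 1521, had 23. A high score at a gene end and many intervals around the gene did not always go together. Lrp6 had the highest score of the set and 19 flanking intervals, each of them nearer to another gene.

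**Figure D4:**
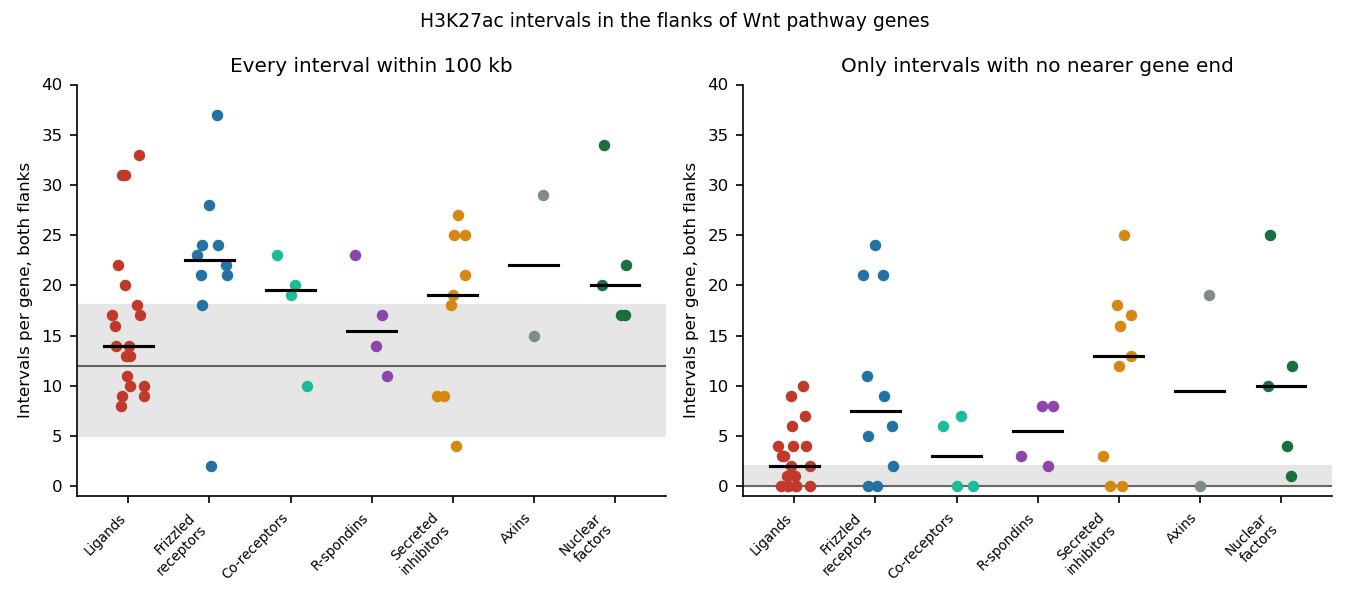
Intervals within 100 kb outside each Wnt pathway gene, both flanks summed, by class, for every interval (left) and for intervals with no nearer protein-coding gene end (right). Points are genes, black bars class medians, and the grey line and band the median and quartiles of all protein-coding genes. On the right the median of the ligands, 2, lies below that of the inhibitors, 13, though the genes of these classes overlap.

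The highest-scored interval away from every protein-coding gene end was taken for each gene. In 9 of the 53 it lay within 1 kb of a RefSeq start of another gene, as at Wnt1 and Wnt10b, where it lay at a start of Kmt2d. Among the other 44, the highest were at Wnt8a with 10387, Fzd3 with 8809, Wnt4 with 4510, Fzd4 with 4232 and Wnt6 and Wnt10a, which shared one with 3813. Start entries were available for 17492 of the 21887 protein-coding genes, so a start near such an interval could have been missed. Among the Axin genes and secreted inhibitors, Axin2 had one with a score of 3443 at 60.8 kb (chr11:109011569-109012116), Sfrp2 one with 1759 at 15.1 kb (chr3:83789447-83790291) and Dkk1 one with 1373 at 6.05 kb (chr19:30539360-30539831). Frzb had one with 408 at 1.86 kb and Lef1 one with 492 at 3.51 kb. Wnt5a had no strong one, with a highest score of 365 at 14.9 kb, although its end interval had 2747. At Rspo2, Rspo3 and Sfrp4 the highest were 152, 173 and 75.

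**Figure D5:**
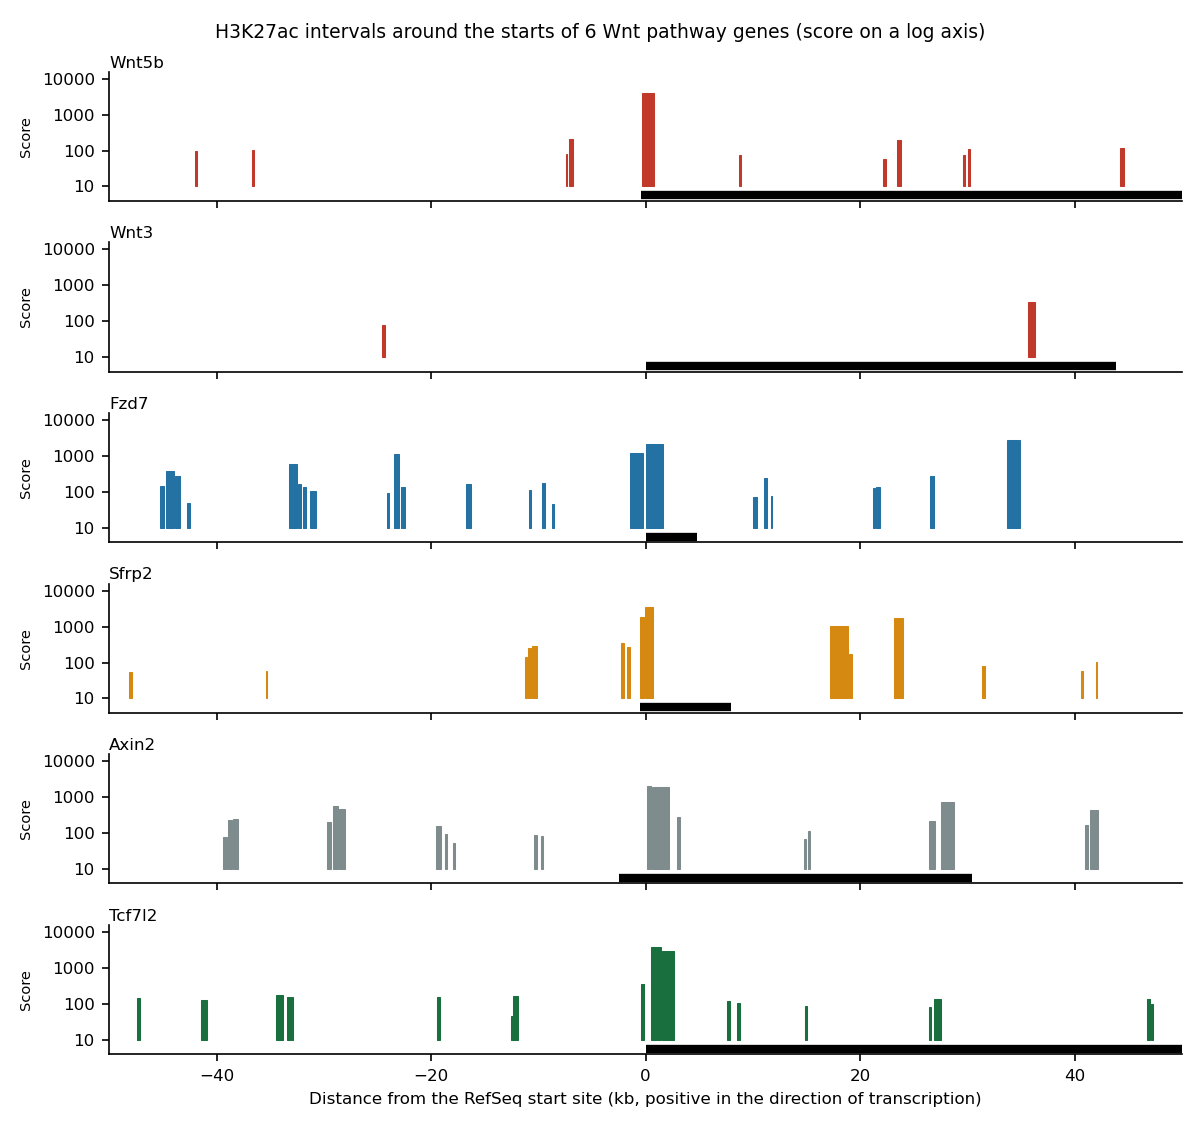
H3K27ac intervals within 50 kb of the RefSeq start of 6 Wnt pathway genes, chosen after their values were seen, with distance from the start in kb (positive in the direction of transcription) and bar height giving the score on a log axis that starts at 10. The black bar is the annotated gene, and the windows hold 24 intervals at Fzd7, 20 at Axin2, 18 at Tcf7l2, 15 at Sfrp2, 11 at Wnt5b and 2 at Wnt3.

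In the maps around the starts, the highest bar stood at or just after the start at Wnt5b, Sfrp2, Tcf7l2 and Axin2, and at Axin2 a second interval of similar score stood beside it. Fzd7 had its highest score, 2717, not at the start (2151) but 33.7 kb downstream, in an interval at an end of Gm973. Around Axin2, the intervals away from the start came in groups on both sides, the strongest of them with a score of 733 at 27.5 kb downstream, followed by 568 upstream. Sfrp2 had intervals with scores of 1077 and 1759 at 17.2 and 23.1 kb downstream of its start, beyond the gene.

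The other Wnt pathway genes compared were 39 genes for ligand secretion, receptor turnover, β-catenin destruction and Dishevelled, nuclear cofactors and planar polarity. Of these, 38 were marked (97.4%), against 65.0% of all protein-coding genes, and 30 had a score of at least 1000 (76.9%, against 45.5%). Their median highest score was 2814. The 3 genes for ligand secretion were marked, among them Wls, the carrier of Wnt ligands to the cell surface, as were all 7 for receptor turnover, 10 of 11 for destruction and Dishevelled, all 8 nuclear cofactors and all 10 for planar polarity. Apc, a scaffold of the destruction complex, had the highest score, 9311, followed by Wls with 8232 and by Gsk3a, one of its kinases, with 8216. The Wls interval lay at the 3′ end, and the highest score at its RefSeq start was 3031. Rnf43 with 2116, Kremen2 with 813 and Celsr3 with 370 were marked only at the 3′ end. Each of these intervals also lay within 1 kb of an end of another gene, so it may belong to that gene. At the RefSeq starts of Rnf43, Kremen2 and Celsr3 there was no interval within 1 kb. Apc2 was the one without an interval at an end, although one with a score of 665 lay at a RefSeq start of it.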

How the data were processed

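H3K27ac intervals came from 1 list. Per the text deposited with it, the authors merged the alignments of 4 WT E10.5 libraries and called intervals once with MACS2 2.1.3.3 (no model, shift 0, extension size 141 bp, all duplicates kept, q-value limit 0.001), naming no control. Bowtie 1.1.1, bcl2fastq 2.17 and the builds GRCm38 and mm10 are named per the submitters' processing notes. The deposited score was used as given, to describe and rank intervals within this list. With no control, regions where reads pile up for other reasons cannot be told apart from acetylated ones. The list held 125826 intervals, of which 125580 lay on chromosomes 1 to 19, X and Y, with scores from 31 and a median of 111. The highest score listed was 3194311, and the highest at an end of any protein-coding gene was 34699.

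Gene spans came from the RefSeq table of GRCm38.p6, start sites and sequences from the RefSeq promoter table of the same build. The files used hold no exons, so introns, exons and UTRs were not told apart. An interval was placed, by an overlap of at least 1 bp, within 1 kb of a gene end, else inside the gene, else within 100 kb outside. Counts used Python 3.11.15, pandas 2.3.3 and numpy 2.4.6, and the counting was tested on simulated data. No test was made, since the pooled list has no replicates. Shares and medians stand beside those of all protein-coding genes. The genes and lists were chosen with earlier results of these data known. Every listed gene could be named, and of the other pathway genes the class counts, the 3 highest scores and the unmarked. Other pathway genes known to be marked only at the 3′ end were named as well. RefSeq start entries were used for 37 genes, under 80% of the 53, so a check of promoter composition over the whole set is void and only the printed windows are described. Those without one were Wnt5a, Wnt7b, Wnt8a, Wnt10a, Fzd2, Fzd3, Fzd6, Fzd8, Lrp5, Lrp6, Rspo2, Rspo3, Dkk3, Sfrp1, Sfrp4 and Axin1.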

Additional observations from a re-analysis of the deposited data

How the results depend on the processing

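The number of Wnt genes with an interval at a gene end was 42 of 53. With windows of 500 bp it was 40, against 61.5% of all protein-coding genes, and with 2.5 kb it was 44, against 70.8%. With scores of at least 100 it was 41, against 61.2%. With 50% of the interval inside the window it was 40, against 63.2%. With intervals at no other gene's end it was also 40, against 51.6%. With RefSeq starts only it was 31 of 37, against 65.5%. By class, the counts with RefSeq starts only were 10 of 15 ligands, 6 of 6 Frizzled receptors, 5 of 6 inhibitors and 5 of 5 nuclear factors with an entry. The ligand count lay near the share of all genes, 65.5%. Under the other settings no count of these classes moved by more than 1.5 times. The median highest score with RefSeq starts only was 561 over the 37 Wnt genes, against 846.5 over all genes with an entry. The median highest score of ligands was 0 with a window of 500 bp, against 455 over all genes. As covered length instead of score, the medians were 975 bases for all 53 genes and 747 over all protein-coding genes. By class they were 402 for ligands, 1659.5 for Frizzled receptors, 1042 for inhibitors and 1248 for nuclear factors. Median counts inside the gene with scores of at least 100 were 1 for all 53, 1 for inhibitors and 8 for nuclear factors, against 0 over all protein-coding genes. Per 10 kb of gene they were 0.624 for all 53, 0.481 for ligands, 0 for Frizzled receptors, 0.737 for inhibitors and 1.30 for nuclear factors. Over all protein-coding genes the median per 10 kb was 0. Most Frizzled genes are short and their end windows do not count as inside, so the 0 of this class is not a measured density. Median flank counts for all 53, ligands, Frizzled receptors, inhibitors and nuclear factors were 8, 7, midway between 10 and 11, 7 and 10 within 50 kb, and 41, 37, 48, 41 and 47 within 250 kb, as a narrower or wider flank must give. Over all protein-coding genes the medians were 6 within 50 kb and 31 within 250 kb. With scores of at least 100 the median flank counts were 10 for all 53, 9 for ligands, 8 for inhibitors and 8 for nuclear factors, against 7 over all protein-coding genes. With intervals at no nearer gene end they were 4 for all 53, 2 for ligands, 7.5 for Frizzled receptors and 10 for nuclear factors, since intervals nearer to other genes were dropped. Over all protein-coding genes the median counted this way was 0. Depth is unknown, so a missing interval does not show that acetylation was absent. No paired analysis was possible because the 4 libraries were merged before intervals were called.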

Other observations

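Of the Wnt ligand genes, 8 stand in 4 neighbouring pairs that share most of their intervals, counting those at the ends, inside and within 100 kb. Wnt1 and Wnt10b lie 11.7 kb apart on chromosome 15 and shared 16 intervals, which were 88.9% of those of Wnt1 and 100% of those of Wnt10b. Wnt6 and Wnt10a, 6.70 kb apart on chromosome 1, shared 13, which were 92.9% of those of Wnt6 and 100% of those of Wnt10a. Wnt3 and Wnt9b, whose spans overlap on chromosome 11, shared 9, which were 81.8% of those of Wnt3 and 100% of those of Wnt9b. Wnt3a and Wnt9a, 16.1 kb apart on the same chromosome, shared 27, which were 84.4% of those of Wnt3a and 73.0% of those of Wnt9a. In the pair of Wnt3a and Wnt9a, the end of Wnt9a had a score of 718 and the ends of Wnt3a no interval. In the pair of Wnt3 and Wnt9b, neither had one at its ends. The counts of intervals around the genes of a pair are therefore not separate values.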
